A study of Mus musculus with 8 samples.

Results

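The enzymes that make cholesterol and fatty acids were followed in incisor tissue of Med1 knockout mice. The group was chosen by name as 35 genes of the sterol and fatty acid synthesis pathways and their regulators. Of these 35 genes 32 had a named probe on the array, among 16593 genes with a named probe in all, and 30 passed the filter on dim probes, among 9085 genes tested. Mvk, Fdft1 and Acat2 were not analysed here. Idi1 and Fasn had 1 probe each that was too dim to be tested.

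Sterols and fatty acids are both built from acetyl-CoA in the cytosol. The mevalonate pathway turns acetyl-CoA into farnesyl diphosphate, which is joined to squalene, closed into lanosterol and trimmed to cholesterol, whereas the fatty acid branch makes saturated chains that elongases lengthen and desaturases give double bonds. Transcription of both branches is driven by the SREBP proteins, which are escorted by Scap when sterols are scarce and held back by the Insig proteins when sterols are plentiful. In epithelia these lipids feed membranes, and in the epidermis they also form the water barrier between cornified cells.

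Tissue of the maturation (Mat) stage was dissected from the lower incisors of C57BL/6 mice aged 10 wk. The KO mice were Med1 fl/fl animals with a Cre driven by the keratin 14 (Krt14) promoter, which removes the Mediator subunit Med1 from Krt14-expressing epithelia, and their incisors carried hairs and had no enamel. The CON mice were Med1 fl/fl littermates whose incisors formed enamel, so both groups carry the floxed allele on the same strain background. The KO pieces were the ones that generated hairs, and cells that never expressed Krt14 keep Med1. Tissue of 3 mice was combined, and its RNA was hybridised to Illumina MouseRef-8 bead arrays, 4 for KO and 4 for CON. Whether each array had a pool of its own is not settled by the labels. The methods speak of samples that each combined several mice, in the passage on setting up the surgery and without naming the arrays. If the arrays share a pool, the p-values cover the spread from array to array alone, which may be technical.

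The arrays had a mean intensity between 550.8 and 811.9 units and 11554 to 13134 detected probes, and they correlated at 0.992 to 0.993 within a group and at 0.911 to 0.923 between groups. Med1 itself was lower in KO, with a difference of -0.76 ± 0.13 on the log2 scale (SE, adjusted p = 0.00075), and where its probe lies relative to the deleted part is not known here. The ameloblast genes Ambn, Klk4, Amelx and Enam and the epithelial keratins Krt14 and Krt5 were detected on all 8 arrays, whereas the ameloblast gene Wdr72 was detected on none. Levels below are log2 intensities after background correction and quantile normalization, differences are KO minus CON on that scale with their SE, and a gene passed the test when the adjusted p from limma, taken over all tested probes, was under 0.05. Levels of different probes cannot be set against each other.

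Most members that passed the test were lower in KO. Of the 30 tested members 16 fell (53.3%), 3 rose (10.0%) and 11 did not pass the test, whereas among all genes tested 36.5% fell and 24.4% rose. With a fold over 1.5 asked for as well, 7 members fell and 2 rose, against a background of 13.4% of genes lower and 15.7% higher. All KO arrays were lower than every CON array in 15 members, against 33.5% of all genes, and all higher in 3 members, against 23.3% of all genes. The median difference of the members was -0.24, with a range from -1.27 to 1.51, and the median over all genes tested was -0.12. The 4 KO arrays were alike in this, and the members' median deviation from the CON mean was -0.25, -0.22, -0.28 and -0.24 on the 4 KO arrays and 0.01, -0.01, 0.01 and -0.02 on the 4 CON arrays. The same median over all genes was -0.10 to -0.11 on the KO arrays.

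The split between higher and lower genes depended on how the arrays were scaled. When cyclic loess replaced quantile normalization, 10 members fell and 4 rose, while the shares over all genes became 22.2% lower and 31.2% higher. Median scaling moved the other way, with 17 members lower and 3 higher, and 42.2% of all genes lower and 20.2% higher. The median of all tested probes was -0.14 with quantile normalization, -0.22 with median scaling and 0.02 with cyclic loess.

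**Figure D1:**
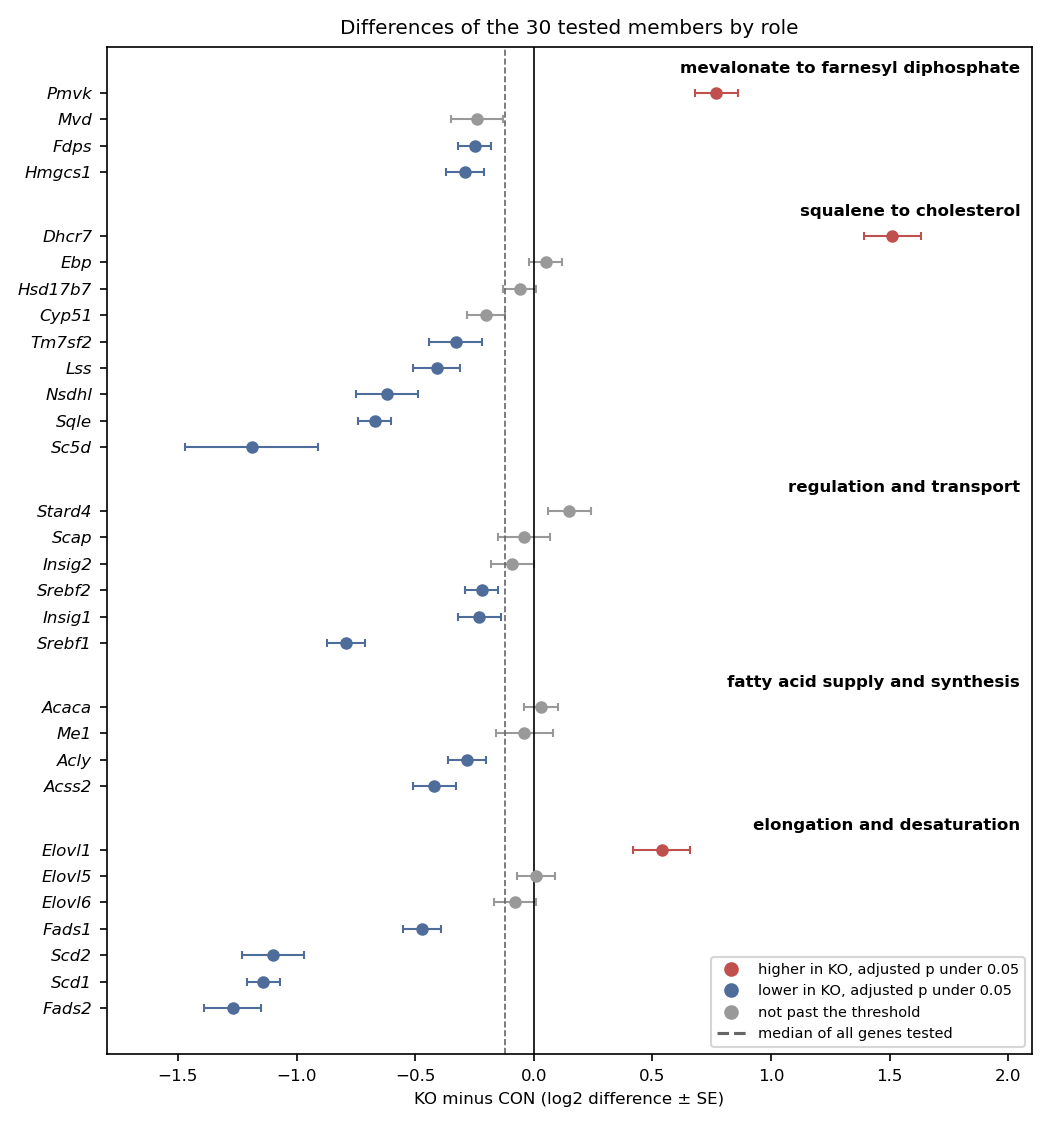
KO minus CON differences on the log2 scale (horizontal axis, points with SE bars) of the 30 tested members, grouped by role from the mevalonate pathway at the top to elongation and desaturation at the bottom, with the median of all genes tested as a dashed line at -0.12. The 4 member desaturases of fatty acids lie at -0.47 or lower, and Dhcr7 at 1.51 and Pmvk at 0.77 are the points farthest to the right.

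The 4 fatty acid desaturases among the members, Scd1, Scd2, Fads1 and Fads2, all fell in KO, where 36.5% of all genes did, with a median difference of -1.12. Scd1 and Scd2 are stearoyl-CoA desaturases that turn saturated into monounsaturated fatty acids, and Fads1 and Fads2 add double bonds to polyunsaturated chains. Their genes lie on chromosome 19 in pairs, each pair close together and the pairs far apart. Fads1 and Fads2 lie from bases 10182877 and 10062765, and Scd1 and Scd2 from bases 44394450 and 44293676. Of the fatty acid desaturases outside the members, Fads3 was at -0.47 ± 0.11 (adjusted p = 0.004), and Scd3 and Scd4 were too dim to be tested.

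Scd1 read 10.47, 10.48, 10.30 and 10.46 on the KO arrays, against 11.57, 11.61, 11.59 and 11.51 on the CON arrays. The KO arrays lay far below the CON arrays and KO replicate 3 was the lowest of them. The difference was -1.14 ± 0.07, a 2.20-fold fall (adjusted p = 4e-07), and this was the smallest adjusted p among the members. Before normalization the Scd1 probe gave 1442.6, 2038.1, 1103.2 and 1422.5 intensity units on the KO arrays and 2850.8, 3035.9, 3270.9 and 3360.8 on the CON arrays, so the groups were apart in the deposited intensities as well.

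Scd2 read 7.88, 8.40, 8.32 and 8.25 on the KO arrays, against 9.09, 9.35, 9.48 and 9.33 on the CON arrays. Replicate 1 was the lowest array of each group and the groups did not overlap. The difference was -1.10 ± 0.13, a 2.14-fold fall (adjusted p = 4e-05). Scd1 and Scd2 are close paralogs, and whether their probes tell the transcripts apart was not tested.

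Fads2, the desaturase that opens the synthesis of long polyunsaturated chains, had the lowest difference of all members. It read 5.95, 6.23, 5.62 and 5.86 on the KO arrays, against 7.12, 7.12, 7.19 and 7.32 on the CON arrays. The KO arrays scattered more than the CON arrays, and all 4 lay below them. The difference was -1.27 ± 0.12, a 2.41-fold fall (adjusted p = 1e-05), and since the probe was dim its size depended on the background correction, being -0.60 in the authors' processed values. Fads1, which acts further along the same route, read 11.88, 11.87, 11.78 and 11.71 on the KO arrays, against 12.19, 12.16, 12.39 and 12.36 on the CON arrays. Its groups did not overlap either, and its fall was smaller, at -0.47 ± 0.08 or 1.39-fold (adjusted p = 0.00069).

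The promoter of Fads2 is shown for the member with the lowest difference, a choice made after the values were seen, as a contrast to the sterol promoter below. It spans chr19:10101454-10101753 on the minus strand of GRCm38.p6, from RefSeq, and runs from 250 bases before the start to 50 after it. The capitals mark its GGGCGG box at bases 65 to 70, and it held no other motif searched.
Fads2 promoter: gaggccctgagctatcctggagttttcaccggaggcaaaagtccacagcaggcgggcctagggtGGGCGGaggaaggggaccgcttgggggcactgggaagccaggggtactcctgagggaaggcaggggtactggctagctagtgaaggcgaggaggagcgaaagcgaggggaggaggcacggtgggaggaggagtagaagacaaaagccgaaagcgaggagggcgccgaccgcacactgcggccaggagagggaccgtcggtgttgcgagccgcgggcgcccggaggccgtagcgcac

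Of the 3 elongases 1 rose and 2 did not pass the test, where 24.4% of all genes rose. Elovl1, which lengthens very long saturated chains, was among the 3 members that rose, and it read 11.20, 11.05, 11.58 and 11.40 on the KO arrays, against 10.83, 10.79, 10.88 and 10.56 on the CON arrays. The KO arrays all lay above the CON arrays, although KO replicate 2 was close to CON replicate 3. The difference was 0.54 ± 0.12, a 1.46-fold rise (adjusted p = 0.0033), and of its 4 tested probes 2 passed the test, with differences from 0.09 to 0.54. Elovl5, which lengthens polyunsaturated chains, was at 0.01 ± 0.08 (adjusted p = 0.89), and Elovl6, which lengthens palmitate, was at -0.08 ± 0.09 (adjusted p = 0.45). Groups overlapped for both.

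**Figure D2:**
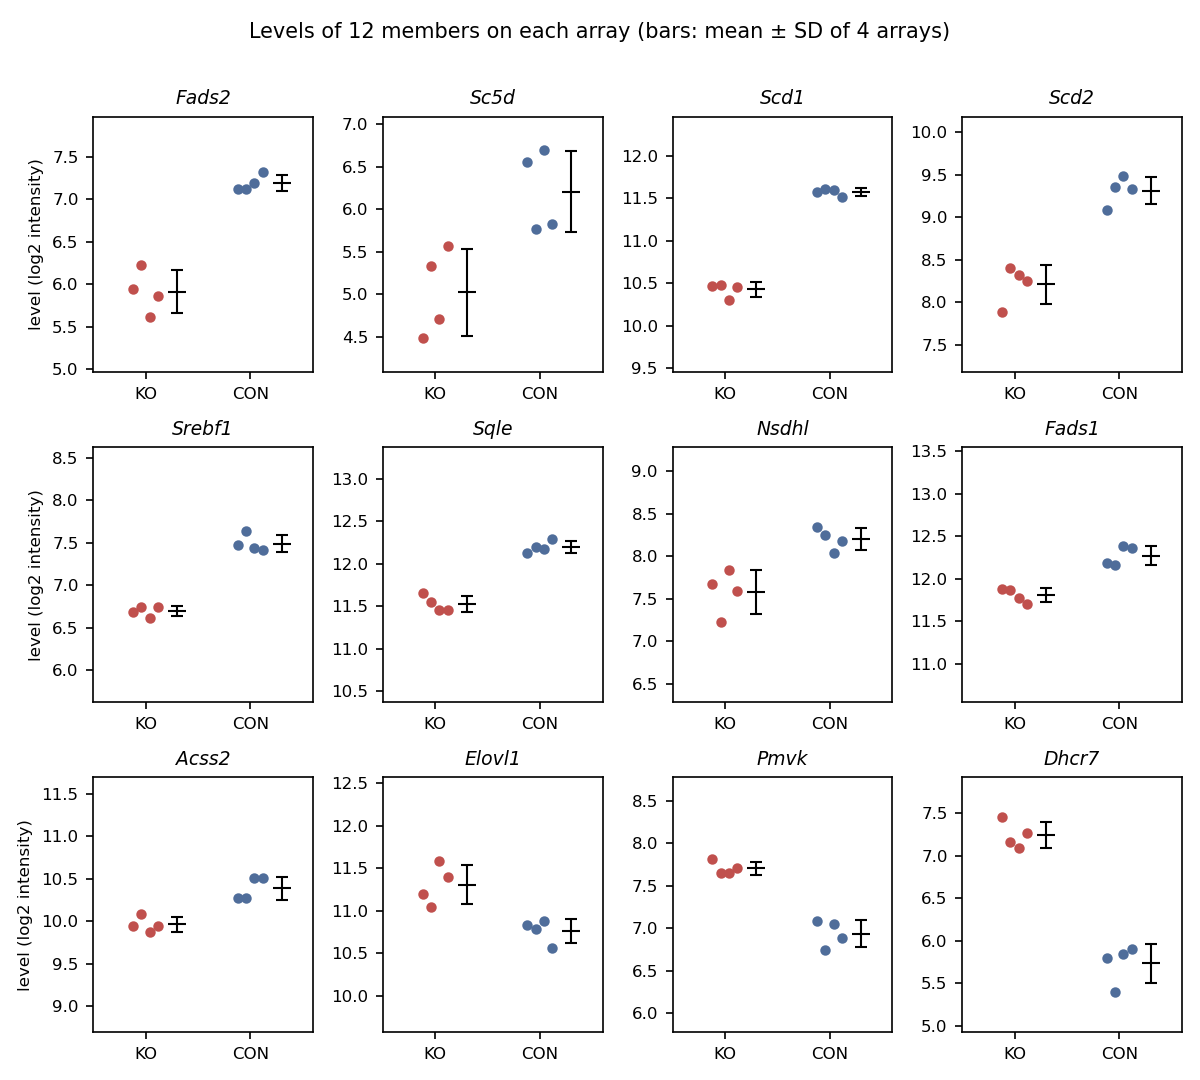
Levels of 12 members on each array (vertical axis, log2 intensity, every panel spanning 3 log2 units), with KO arrays in red left of CON arrays in blue and the mean ± SD of 4 arrays as black bars. KO and CON arrays do not overlap in any of the 12 panels, and Elovl1, Pmvk and Dhcr7 are the ones with KO above CON. The 12 were picked for passing the test with the largest differences, so the lack of overlap follows in part from this choice. Among all 30 tested members, KO arrays all lie below CON in 15 and all above in 3. The shares over all genes are 33.5% below and 23.3% above.

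Among the genes that supply carbon and reducing power for fatty acids, 2 of 4 tested members fell and none rose. Of all genes 36.5% fell and 24.4% rose. Acss2, which makes acetyl-CoA from acetate, read 9.95, 10.09, 9.88 and 9.95 on the KO arrays, against 10.28, 10.27, 10.51 and 10.51 on the CON arrays. The groups did not overlap and the CON arrays formed a lower and a higher pair. The difference was -0.42 ± 0.09, or 1.34-fold (adjusted p = 0.0021). Acly, which makes acetyl-CoA from citrate, fell by a smaller amount, with 12.20 ± 0.12 in KO and 12.48 ± 0.05 in CON (SD, n = 4 each), a difference of -0.28 ± 0.08 (adjusted p = 0.01). Acaca, the carboxylase that makes malonyl-CoA, was at 0.03 ± 0.07 (adjusted p = 0.75), and Me1, the malic enzyme that makes NADPH, at -0.04 ± 0.12 (adjusted p = 0.79). Fasn, the fatty acid synthase, was detected on 0 of the 8 arrays, with 103.1 to 120.8 intensity units on the KO arrays and 103.3 to 119.7 on the CON arrays. Its probe was not well above background, which sets no limit here on the level of the transcript.

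In the mevalonate pathway 2 of 4 tested members fell and 1 rose, with a median of -0.25. Over all genes 36.5% fell and 24.4% rose. Hmgcs1, the synthase that makes HMG-CoA, was at 13.50 ± 0.11 in KO and 13.79 ± 0.09 in CON (SD, n = 4 each), and its fall of -0.29 ± 0.08 was 1.22-fold (adjusted p = 0.011). Fdps, which makes farnesyl diphosphate, was at 12.14 ± 0.08 in KO and 12.40 ± 0.05 in CON, a difference of -0.25 ± 0.07 (adjusted p = 0.011). Groups did not overlap for either gene, but both calls were lost with cyclic loess, where the adjusted p was 0.056 for each.

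Pmvk, the kinase of phosphomevalonate that stands between them in the pathway, went the other way. It read 7.81, 7.65, 7.65 and 7.71 on the KO arrays, against 7.08, 6.74, 7.05 and 6.88 on the CON arrays. The KO arrays lay close together and well above the CON arrays. The difference was 0.77 ± 0.09, a 1.70-fold rise (adjusted p = 5.6e-05), and it was 0.46 in the authors' processed values and 1.01 with cyclic loess. Mvd, the next enzyme of the pathway, was at -0.24 ± 0.11 with overlapping groups (adjusted p = 0.072), and it passed the test without KO replicate 1, at -0.33. Idi1, an isomerase of isopentenyl diphosphate, was detected on 1 of the 4 KO arrays and on 0 of the 4 CON arrays, with 128.6 to 167.4 intensity units on the KO arrays and 137.5 to 143.4 on the CON arrays, and was not tested.

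The promoter of Hmgcs1 is shown because it was the only member promoter in the table with the sterol element core TCACNCCAC, a sequence that SREBP proteins are known to bind. It spans chr13:119690101-119690400 on the plus strand of GRCm38.p6, from RefSeq. The capitals mark the core at bases 114 to 122, 4 CCAAT boxes in the opposite orientation (ATTGG) and 3 GGGCGG boxes in either orientation.
Hmgcs1 promoter: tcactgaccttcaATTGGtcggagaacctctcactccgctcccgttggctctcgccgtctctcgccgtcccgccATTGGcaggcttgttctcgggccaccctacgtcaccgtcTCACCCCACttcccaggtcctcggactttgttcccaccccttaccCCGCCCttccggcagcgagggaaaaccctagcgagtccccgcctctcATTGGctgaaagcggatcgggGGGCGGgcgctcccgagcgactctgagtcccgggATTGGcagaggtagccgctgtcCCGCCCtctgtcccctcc

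Promoters of 26 of the 32 members with a probe were in the RefSeq table, with 36 promoters in all, since some genes have several starts. Fdps, Sqle, Stard4, Scd1, Scd2 and Fads1 were not among them. Searched on both strands, TCACNCCAC was in 1 of these 36 promoters, against 1.24% of all 32851 promoters of the same length. The CCAAT box was in 23 of the 36 (63.9%), against 37.4% of all promoters, and the GGGCGG box known for Sp1 was in 26 (72.2%), against 35.7%. The E-box CACGTG was in 7 (19.4%), against 7.15% of all promoters. These motifs do not overlap each other in the promoters printed, and a match is a description of the letters only.

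The enzymes from squalene to cholesterol were the largest group, and 5 of 9 tested members fell while 1 rose, with a median of -0.33. The shares over all genes were 36.5% lower and 24.4% higher. Sqle, the squalene epoxidase, read 11.65, 11.55, 11.45 and 11.46 on the KO arrays, against 12.13, 12.19, 12.17 and 12.29 on the CON arrays. The groups did not overlap. The difference was -0.67 ± 0.07, a 1.59-fold fall (adjusted p = 3.6e-05), and its other probe fell too, at -0.85 ± 0.11.

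Nsdhl, a dehydrogenase that helps to remove methyl groups from the sterol ring, read 7.67, 7.23, 7.84 and 7.59 on the KO arrays, against 8.34, 8.25, 8.04 and 8.18 on the CON arrays. KO replicate 2 was the lowest array, and the groups came near each other without overlap. The difference was -0.62 ± 0.13, a 1.54-fold fall (adjusted p = 0.002), and all 4 tested probes of Nsdhl fell, with differences from -0.67 to -0.52.

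Sc5d, the desaturase of the sterol ring late in the pathway, read 4.48, 5.33, 4.71 and 5.57 on the KO arrays, against 6.55, 5.77, 6.69 and 5.82 on the CON arrays. The arrays of a group scattered more than for any other member described here, and KO replicate 4 lay just below CON replicate 2. The difference was -1.19 ± 0.28, a 2.28-fold fall (adjusted p = 0.0048). The probe was dim and was detected on 2 of the 4 KO arrays, so the size of this fall is approximate, and it was -0.41 in the authors' processed values and -0.69 with an offset of 50.

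Lss, the cyclase that makes lanosterol, was at 8.42 ± 0.13 in KO and 8.83 ± 0.15 in CON (SD, n = 4 each), a fall of -0.41 ± 0.10 (adjusted p = 0.0047) that was lost with cyclic loess (adjusted p = 0.054). Tm7sf2, a reductase of the sterol ring, was at 5.41 ± 0.15 in KO and 5.74 ± 0.17 in CON, a difference of -0.33 ± 0.11 (adjusted p = 0.022) with groups that overlapped. Its probe was detected on 3 of the 4 KO arrays, and its call was lost without KO replicate 2 (-0.28), without CON replicate 3 (-0.26), with cyclic loess (-0.18) and in the authors' processed values (-0.11). Cyp51, which removes a methyl group from lanosterol, was at -0.20 ± 0.08 and just missed the threshold (adjusted p = 0.055), although its groups did not overlap. It passed in 8 of the 24 alternatives, among them the authors' processed values (-0.18), median scaling (-0.36) and leaving out KO replicate 3 (-0.25). Hsd17b7, a reductase that works beside Nsdhl, was at -0.06 ± 0.07 (adjusted p = 0.48), and Ebp, a sterol isomerase, at 0.05 ± 0.07 (adjusted p = 0.59).

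Dhcr7, the reductase that completes cholesterol, was the member of this group that rose. It read 7.45, 7.16, 7.09 and 7.26 on the KO arrays, against 5.80, 5.39, 5.84 and 5.90 on the CON arrays. The lowest KO array lay more than a log2 unit above the highest CON array. The difference was 1.51 ± 0.12, a 2.84-fold rise (adjusted p = 3.7e-06), and it was 0.70 in the authors' processed values, 1.09 with an offset of 50 and 1.71 with cyclic loess. The deposited intensities of the Dhcr7 probe were 273.5, 322.6, 214.1 and 253.9 units on the KO arrays and 147.3, 138.6, 160.0 and 170.6 units on the CON arrays, so the rise was in the values before any correction.

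The RefSeq table holds 3 starts of Dhcr7, and the promoter with the most motif matches is shown for the member with the highest difference, a choice made after the values were seen. It spans chr7:143829964-143830263 on the plus strand of GRCm38.p6. The capitals mark 3 GGGCGG boxes and a CCAAT box in each orientation, and the sterol element core was in none of its 3 promoters.
Dhcr7 promoter: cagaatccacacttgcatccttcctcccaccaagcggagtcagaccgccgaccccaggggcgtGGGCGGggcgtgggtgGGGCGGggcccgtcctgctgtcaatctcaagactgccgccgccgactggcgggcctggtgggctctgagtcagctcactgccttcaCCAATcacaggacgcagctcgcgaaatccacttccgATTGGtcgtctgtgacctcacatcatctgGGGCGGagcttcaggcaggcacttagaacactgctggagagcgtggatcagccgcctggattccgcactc

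Of the 6 regulators and carriers 3 fell, 0 rose and 3 did not pass the test, where 36.5% of all genes fell and 24.4% rose. Srebf1, which encodes the SREBP protein best known for fatty acid genes, read 6.69, 6.74, 6.61 and 6.75 on the KO arrays, against 7.47, 7.64, 7.44 and 7.41 on the CON arrays. Both groups were tight and the gap between them was wider than the range of either. The difference was -0.79 ± 0.08, a 1.73-fold fall (adjusted p = 1.2e-05), and it was -0.45 in the authors' processed values. Which isoforms of the gene its probe reads is not known here, and a further Srebf1 probe was detected on none of the arrays.

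Srebf2, which encodes the SREBP protein best known for sterol genes, was at 10.16 ± 0.08 in KO and 10.38 ± 0.06 in CON (SD, n = 4 each), a fall of -0.22 ± 0.07 (adjusted p = 0.021). The call was lost without KO replicate 1 (-0.19), without CON replicate 2 (-0.20) and with cyclic loess (-0.12). Insig1, the sterol sensor that holds SREBP back, was at 7.31 ± 0.09 in KO and 7.54 ± 0.15 in CON, a difference of -0.23 ± 0.09 (adjusted p = 0.049) with overlapping groups. This call was lost in 15 of the 24 alternatives tried, among them leaving out any of KO replicates 1, 3 or 4 or CON replicates 1, 2 or 4 (-0.25 to -0.19), and the difference was 0.01 with cyclic loess. The other 2 tested Insig1 probes were lower as well, and the 3 differences lay between -0.29 and -0.23. Insig2 was at -0.09 ± 0.09 (adjusted p = 0.42), Scap, the escort of SREBP, at -0.04 ± 0.11 (adjusted p = 0.78), and Stard4, a carrier of cholesterol between membranes, at 0.15 ± 0.09 (adjusted p = 0.16). Stard4 passed the test with cyclic loess, at 0.34.

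**Figure D3:**
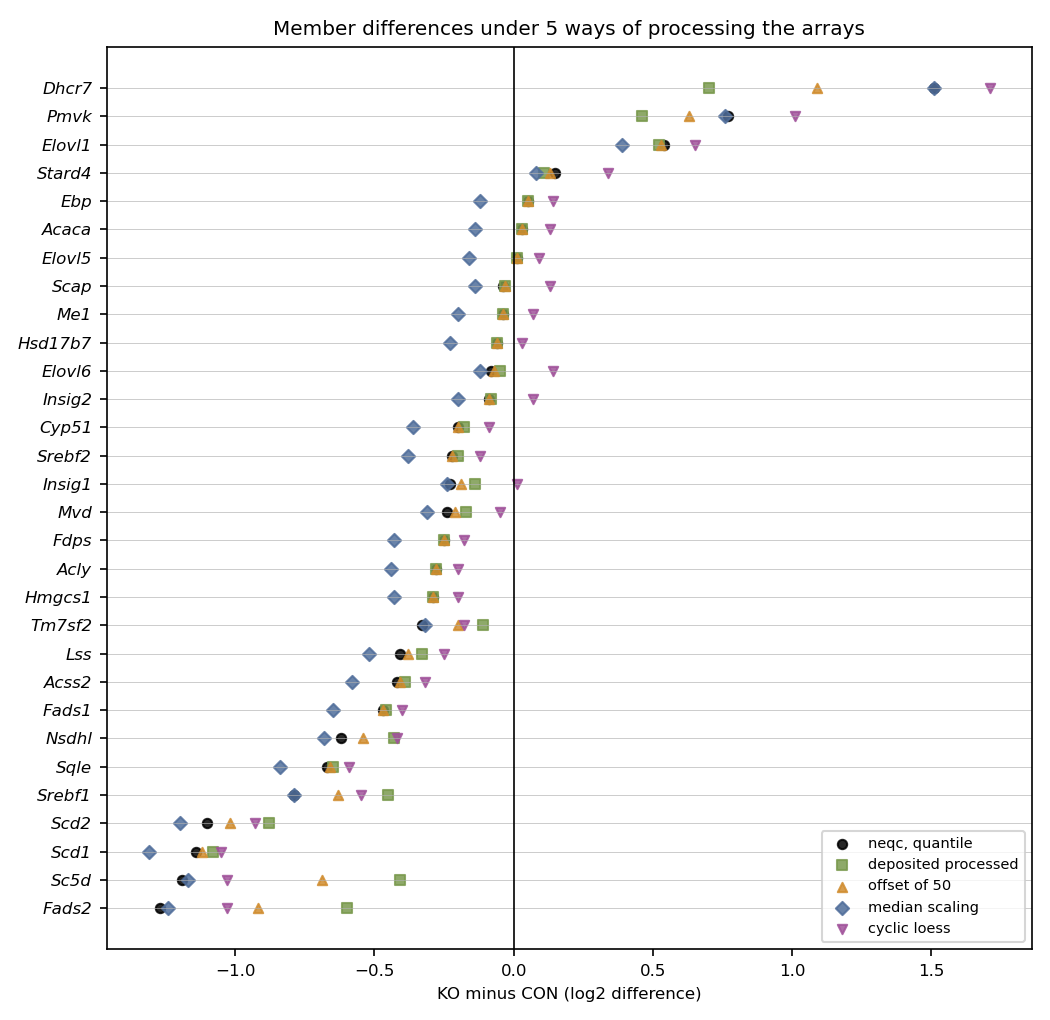
KO minus CON differences (horizontal axis, log2) of the 30 tested members under 5 ways of processing the arrays, ordered by the value after background correction and quantile normalization (black). The members Dhcr7, Fads2, Sc5d and Pmvk move most, with 0.70, -0.60, -0.41 and 0.46 in the authors' processed values (green squares), and median scaling (blue) and cyclic loess (purple) shift most members in opposite directions.

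A further 40 genes of sterol handling outside the members were looked at, of which 23 had a named probe and 15 were tested. Here 10 rose (66.7%) and 2 fell (13.3%), where 24.4% of all genes rose and 36.5% fell. The median was 0.59, against -0.12 over all genes, and the list was chosen with earlier results of these data known. Idi2, an isomerase related to Idi1 and among those that rose, was at 8.12 ± 0.22 in KO and 5.08 ± 0.12 in CON (SD, n = 4 each). It was detected on 0 of the 4 CON arrays, and its level was at least 6.16-fold higher in KO. Its probe passed the filter through the KO arrays alone. A higher level in KO thus had to follow from the filter in part and is a description only. Ch25h, which hydroxylates cholesterol, was 2.41-fold higher (1.27 ± 0.11), Apoe, a carrier of cholesterol in lipoproteins, 2.23-fold (1.16 ± 0.11), and Nr1h3, the oxysterol receptor LXR alpha, 2.14-fold (1.10 ± 0.08). Lbr, a nuclear envelope protein with the same reductase activity as Tm7sf2, was 1.55-fold higher (0.63 ± 0.07). The adjusted p of these 4 genes lay between 2e-06 and 5.1e-05, and no KO array overlapped a CON array.

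Of 58 other genes of fatty acid metabolism 46 had a named probe and 32 were tested. Here 15 fell (46.9%) and 9 rose (28.1%), where 36.5% of all genes fell and 24.4% rose. The median was -0.23, against -0.12 over all genes. Pparg, counted among those that rose, was detected on 4 KO arrays and 1 CON array and passed the filter through the KO arrays. Slc25a1, the carrier that exports citrate from mitochondria, was at 10.84 ± 0.05 in KO and 12.01 ± 0.11 in CON (SD, n = 4 each), a 2.25-fold fall (-1.17 ± 0.08, adjusted p = 6.6e-07). Elovl4, the elongase of the very long chains of the epidermal barrier, was at 11.22 ± 0.12 in KO and 8.02 ± 0.11 in CON, a 9.17-fold rise (3.20 ± 0.09, adjusted p = 1.4e-09). Fabp5, the fatty acid binding protein of the epidermis, was 7.29-fold higher (2.87 ± 0.08), Lpl, the lipase that frees fatty acids from lipoproteins, 5.37-fold (2.42 ± 0.07), and Dgat2, which makes triacylglycerol, 3.45-fold (1.79 ± 0.08).

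**Figure D4:**
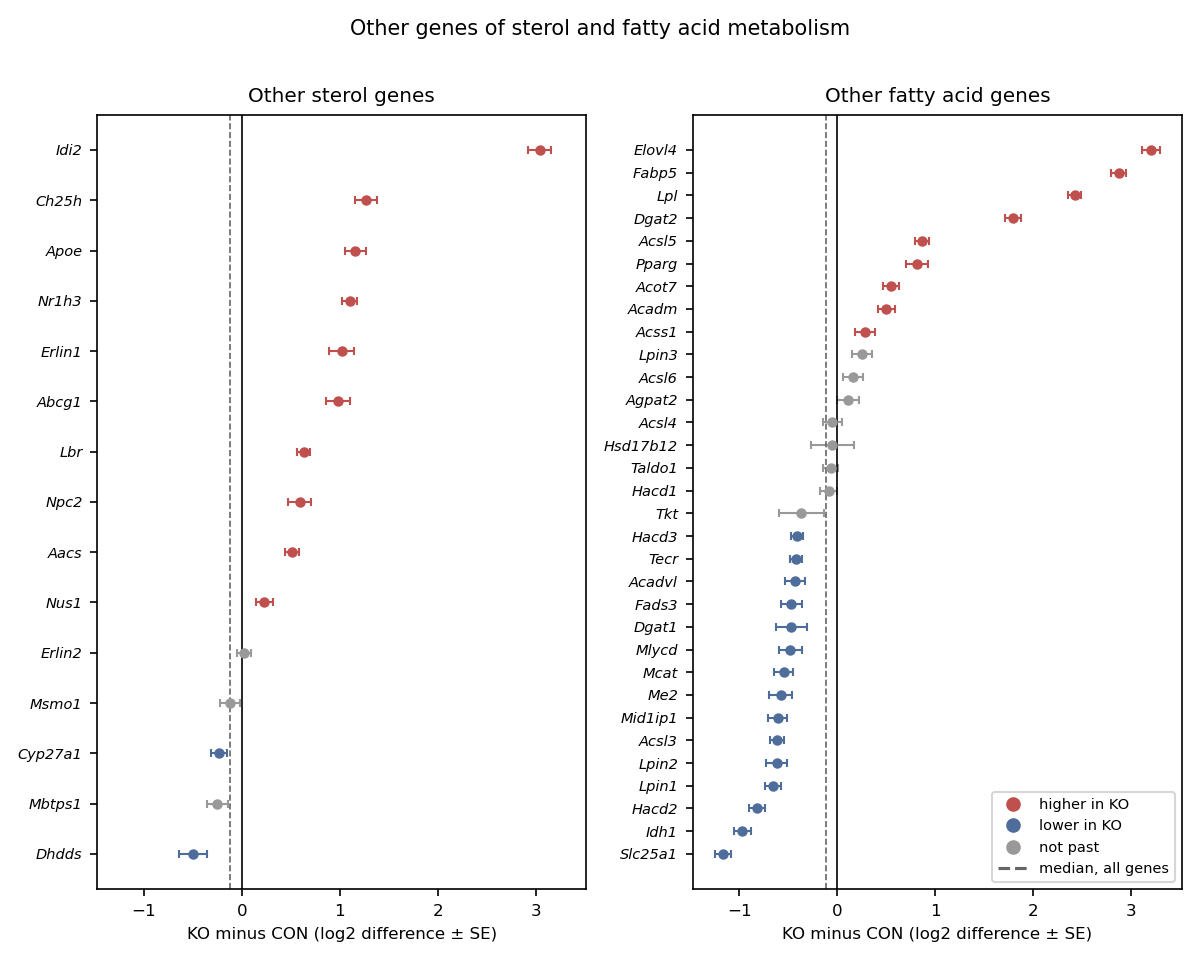
KO minus CON differences on the log2 scale (horizontal axes, points with SE bars) of the tested genes outside the members, with 15 of sterol handling on the left and 32 of fatty acid metabolism on the right, and the median of all genes as a dashed line. Idi2 at 3.04 and Elovl4 at 3.20 are the highest points, and Slc25a1 at -1.17 is the lowest.

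Markers of other cell types moved with the genotype, and in bulk tissue fewer cells of a type and less RNA per cell cannot be told apart. All 8 tested genes of the cornified epidermis rose, with a summed log2 level of 16.05 to 16.09 on the KO arrays and 12.03 to 12.32 on the CON arrays. All 8 tested macrophage genes rose (14.71 to 14.84 in KO, 11.38 to 11.51 in CON), as did all 10 skeletal muscle genes (15.66 to 15.82 in KO, 14.10 to 14.15 in CON) and all 7 neutrophil genes (14.80 to 14.92 in KO, 13.45 to 13.53 in CON). Of 4 epithelial genes 2 fell and 1 rose (15.67 to 15.72 in KO, 15.78 to 15.85 in CON). Krt5 was at 12.48 in KO and 13.46 in CON (-0.98 ± 0.09, adjusted p = 6.9e-06). The epithelial factor Trp63 was at -0.48 ± 0.07 (adjusted p = 0.00022). Cdh1 rose, at 0.34 ± 0.08 (adjusted p = 0.004), and Krt14, at 15.26 in KO and 15.15 in CON, did not pass. Of 8 tested gland genes 5 fell and 3 rose, with a median of -2.12 (10.75 to 10.90 in KO, 11.51 to 11.78 in CON). Among those that fell the secretoglobin Scgb1b2 was at -4.52 and Scgb2b24 at -4.27. The 3 that rose were Prol1 at 3.68 ± 0.11, Bpifa2 at 0.87 ± 0.09 and Aqp5 at 0.57 ± 0.15, with overlapping groups for Aqp5. Of the ameloblast genes 3 of 7 rose and 2 fell. Enam (1.14 ± 0.14), Klk4 (0.65 ± 0.07) and Ambn (0.31 ± 0.08) rose, and Sp6 (-0.77 ± 0.08) and Slc24a4 (-0.18 ± 0.06) fell. Amelx and Mmp20 did not pass. In the lists of bone and dentin cells, fibroblasts and endothelium 3 genes each rose, of 3, 6 and 5 tested, and 0 fell. In the list of bone and dentin cells Dmp1 and Dspp were detected on none of the arrays. For comparison with all these lists, 24.4% of all genes rose and 36.5% fell. Krt1 and 3 more of the marker genes that rose, Clec4d, Elane and Myh4, were detected on no more than 1 CON array and passed the filter through the KO arrays. Likewise Scgb2b24, Dcpp1, Dcpp2 and Dcpp3, 4 of the 5 gland genes that fell, were detected on no more than 1 KO array and passed through the CON arrays. The part of these cells in the differences of the sterol and fatty acid genes was not tested.

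Adipocytes and sebaceous glands are rich in fatty acid synthesis, and their marker genes were mostly below detection. Of 9 adipocyte genes on the array Pparg, Slc2a4 and Adipoq were tested. These 3 passed the filter through the KO arrays, with detection on at most 1 CON array, so that their higher level in KO (summed level 7.58 to 7.74 in KO, 6.36 to 6.82 in CON) had to follow from the filter in part and is a description only. Plin1, Fabp4, Cidec, Lep, Retn and Ucp1 were detected on none of the arrays and Adipoq was detected on the 4 KO arrays only. Of 9 sebaceous gland genes 4 were tested and all 4 rose (10.74 to 10.98 in KO, 10.42 to 10.47 in CON), where 24.4% of all genes did. Pparg was among them, while Scd3, Awat2, Far2, Elovl3 and Mc5r were detected on none of the arrays.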

How the data were processed

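RNA from maturation stage tissue was measured on 4 KO and 4 CON arrays. The authors summarised beads in GenomeStudio (version not given in the sources used here) and deposited the mean intensity of 25697 probes per array without normalization, with a detection p-value beside each. The intensities as the authors normalized them are in a further deposited table, used as an alternative.

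The neqc function of limma 3.58.1 (R 4.3.3) corrected the intensities (offset 16, quantile normalization, log2), and the 12838 probes with a detection p under 0.01 on at least 4 arrays were tested with lmFit and eBayes, two-sided, without covariates. The Benjamini-Hochberg adjustment ran over these probes, and genes under 5% were called. Each adjusted p in the text is limma's. The authors deposited linear values, so every log2 level is computed here. Folds of dim genes are understated by the offset. Signal above background and the number of arrays limit the precision.

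Of the probes 23978 carried 1 gene symbol and 1719 none. The brightest tested probe stood for a gene. An "at least" fold sets the brighter group against the higher of the dim probe and the lowest detected signal per array. Members past the threshold with a fold over 1.5, topped up to 12 by the next largest differences, are given on every array, and up to 5 other genes of a pathway list are named by the size of the moderated statistic. Sums of markers are log2 of the summed linear levels of the tested genes. The members and lists were chosen with earlier results of these data known. Replicate numbers did not pair the arrays. The fit was tested on simulated data. Promoters were read from RefSeq (GRCm38.p6). Tables and figures used Python 3.11.15, pandas 2.3.3, numpy 2.4.6 and matplotlib 3.10.9. Alternatives were the authors' processed values, other background, offset, scaling, filter, variance, threshold and gene summary settings, array weights, the replicate block, an ordinary two-sample test and leaving out each array.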

Additional observations from a re-analysis of the deposited data

Results flagged for a closer look

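Among 80 groups of 4 arrays examined, 2 had an array apart from the other 3, where chance alone gives about 1 in 20. Scd1 was lower on KO replicate 3, at 10.30, than on the other KO arrays, at 10.46 to 10.48, and its difference from CON stayed between -1.16 and -1.10 with any array left out. Ch25h was higher on KO replicate 1, at 8.46, than on the other KO arrays, at 8.07 to 8.13.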

How the results depend on the processing

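Of the 19 members that passed the test, 13 kept their call under every scaling and background setting, 16 with each array left out and 9 under all alternatives run for them, which were 24, or 23 for Sc5d, whose probe is not detected on all 8 arrays. Over all members and alternatives, 649 of 718 differences kept their direction and side of the threshold, 40 lost the call, 12 gained it and 17 changed sign. The median of the members was -0.18 with the deposited processed values and with no background correction, -0.20 with an offset of 50, -0.34 with median scaling and -0.10 with cyclic loess. Members lower in KO numbered 10 with cyclic loess and 7 at the thresholds of the study's methods, which ask for an unadjusted p under 0.005 and a fold over 1.5 and called 3594 probes in place of 7665. Leaving out 1 array gave 14 to 16 members lower, with 14 without CON replicate 2. With median scaling Ebp was at -0.12, Acaca at -0.14 and Elovl5 at -0.16, and with cyclic loess Hsd17b7 was at 0.03, Insig1 at 0.01, Insig2 at 0.07, Scap at 0.13, Elovl6 at 0.14 and Me1 at 0.07, and the cause was not tested. With 1 array left out the difference ranged from -0.12 to 0.01 for Scap, from -0.04 to 0.05 for Elovl5, from -0.12 to 0.04 for Me1 and from -0.01 to 0.06 for Acaca. Same-numbered arrays of the groups did not deviate together (r from -0.0113 to 0.0192), and with the replicate number as a block 17 members were lower, 3 higher and 7390 probes called. Signal limits the dim probes of Dhcr7, Fads2, Sc5d, Srebf1 and Tm7sf2, whose differences shrank without background correction. Those of other members shrank too, among them Pmvk (0.46 in place of 0.77), Nsdhl (-0.43 in place of -0.62) and Scd2 (-0.88 in place of -1.10).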

Other observations

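The genes in this paragraph were singled out after their values were seen. Of 5 tested enzymes of the elongation cycle beside the elongases, 3 fell, where 36.5% of all genes did. Hacd2, a dehydratase of the cycle, fell 1.77-fold (-0.82 ± 0.08, adjusted p = 1.2e-05), Hacd3 1.33-fold (-0.41 ± 0.06) and Tecr, its final reductase, 1.34-fold (-0.42 ± 0.06), whereas Hacd1 was at -0.09 ± 0.09 and Hsd17b12 at -0.05 ± 0.22, and neither passed the test. Idh1, a source of cytosolic NADPH, fell 1.97-fold (-0.97 ± 0.09, adjusted p = 5.6e-06). Of 4 tested long-chain acyl-CoA synthetases Acsl3 was 1.54-fold lower (-0.62 ± 0.07) and Acsl5 1.82-fold higher (0.86 ± 0.07), while Acsl4, at -0.05 ± 0.10, and Acsl6, at 0.16 ± 0.10, did not pass the test. Among genes of sterol transport, Abcg1, an exporter of cholesterol, rose 1.97-fold (0.98 ± 0.12, adjusted p = 6.1e-05) and Npc2, a lysosomal carrier of cholesterol, 1.51-fold (0.59 ± 0.12, adjusted p = 0.0021). Erlin1, a membrane protein that takes part in the turnover of HMG-CoA reductase, rose 2.03-fold (1.02 ± 0.13), while its relative Erlin2 was at 0.02 ± 0.07 and did not pass.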
